A study of Mus musculus with 4 samples.

Results

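Genes of axon guidance were first described for the steering of growing axons, and blood vessels use many of the same receptors and ligands. Of these, 10 vascular genes were followed through brain vessels of *Angpt2*-KO and *Angpt2*-WT mice: the receptors *Plxnd1*, *Plxna2*, *Unc5b*, *Robo4* and *Ephb4*, and the ligands *Sema3c*, *Sema3f*, *Sema3g*, *Sema6a* and *Efnb2*. They were chosen by symbol, with earlier results of these data known, and each has 1 row among the 32286 features counted. Single-cell RNA was counted in microvascular fragments from the brains of 4 mice aged 3 months, 2 *Angpt2*-WT (genotype *Angpt2*+/+) and 2 *Angpt2*-KO (*Angpt2*-/-), with 1 library per mouse. Replicate 1 of each genotype (WT1, KO1) was female and replicate 2 (WT2, KO2) male. The KO allele lacks exon 4 of *Angpt2* in all tissues, because the floxed allele was crossed to a Pgk-Cre line that is active in the germline, and the controls were WT littermates on the C57BL6/J background. Fragments of both genotypes were pulled with beads against PECAM1, so mural cells and other cells attached to the endothelium came along.

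In both nerves and vessels, semaphorins act through plexins, often with a neuropilin as co-receptor. *Sema3c*, *Sema3f* and *Sema3g* are secreted, *Sema6a* stays in the membrane and binds A-type plexins such as *Plxna2*, and *Plxnd1* is the plexin best known from endothelial cells (ECs), where it is the receptor of *Sema3e*. *Unc5b* binds netrins and is known from arterial and sprouting ECs, and *Robo4* is the roundabout receptor particular to endothelium. The membrane ligand *Efnb2* and its receptor *Ephb4* are the classic pair by which arteries and veins are told apart.

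Promoter windows of 300 bases (250 before and 50 after the RefSeq start, GRCm38.p6) were found for 8 of the 10 genes, and none for *Sema3f* and *Sema6a*. The 6 shown belong to the genes on which the results below turn: *Plxnd1*, *Plxna2* and *Robo4* rose together in the capillary-like ECs of the *Angpt2*-KO mice, and *Unc5b*, *Sema3g* and *Efnb2* were, among those with a window, the genes called higher in arterial-like than in capillary-like ECs. The windows lie at chr6:115994956-115995255 (minus strand), chr1:194619579-194619878 (plus), chr9:37401722-37402021 (plus), chr10:60831532-60831831 (minus), chr14:31217623-31217922 (plus) and chr8:8661193-8661492 (minus), in the order printed. Each is written 5′ to 3′ in the direction of transcription, and capitals mark CpG dinucleotides.
Plxnd1: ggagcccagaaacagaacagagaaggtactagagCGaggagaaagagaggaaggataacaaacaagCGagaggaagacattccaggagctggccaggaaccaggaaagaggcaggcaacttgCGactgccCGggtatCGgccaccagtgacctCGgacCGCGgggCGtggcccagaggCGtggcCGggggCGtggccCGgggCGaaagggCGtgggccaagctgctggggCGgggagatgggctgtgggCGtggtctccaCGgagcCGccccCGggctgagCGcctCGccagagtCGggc
Plxna2: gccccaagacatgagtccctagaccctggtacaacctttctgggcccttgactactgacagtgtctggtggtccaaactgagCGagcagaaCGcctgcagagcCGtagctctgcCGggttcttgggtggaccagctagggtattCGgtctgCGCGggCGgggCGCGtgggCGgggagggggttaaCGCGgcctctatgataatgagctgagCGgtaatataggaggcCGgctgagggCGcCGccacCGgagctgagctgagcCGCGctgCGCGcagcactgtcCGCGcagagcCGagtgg
Robo4: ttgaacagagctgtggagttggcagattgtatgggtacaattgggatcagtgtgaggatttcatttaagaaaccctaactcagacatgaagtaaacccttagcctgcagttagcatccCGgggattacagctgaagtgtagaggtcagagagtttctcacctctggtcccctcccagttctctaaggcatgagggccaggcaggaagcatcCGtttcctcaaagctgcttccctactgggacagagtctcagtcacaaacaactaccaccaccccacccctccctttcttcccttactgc
Unc5b: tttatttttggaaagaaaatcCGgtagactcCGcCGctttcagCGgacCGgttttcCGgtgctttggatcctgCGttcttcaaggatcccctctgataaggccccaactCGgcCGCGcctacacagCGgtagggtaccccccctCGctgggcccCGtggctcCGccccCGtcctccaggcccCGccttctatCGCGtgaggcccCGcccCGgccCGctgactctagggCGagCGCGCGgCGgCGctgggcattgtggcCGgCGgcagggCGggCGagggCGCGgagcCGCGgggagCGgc
Sema3g: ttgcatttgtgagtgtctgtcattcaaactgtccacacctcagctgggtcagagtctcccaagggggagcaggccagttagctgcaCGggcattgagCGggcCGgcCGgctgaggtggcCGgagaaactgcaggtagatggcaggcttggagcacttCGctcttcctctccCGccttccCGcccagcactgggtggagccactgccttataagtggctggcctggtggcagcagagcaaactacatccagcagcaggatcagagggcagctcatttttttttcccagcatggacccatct
Efnb2: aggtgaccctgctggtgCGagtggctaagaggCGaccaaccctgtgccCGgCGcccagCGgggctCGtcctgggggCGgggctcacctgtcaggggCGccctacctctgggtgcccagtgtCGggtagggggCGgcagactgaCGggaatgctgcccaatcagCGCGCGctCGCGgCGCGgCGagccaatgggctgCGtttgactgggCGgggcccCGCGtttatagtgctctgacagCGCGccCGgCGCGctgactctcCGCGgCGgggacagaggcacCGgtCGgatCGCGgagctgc
The windows differed in their CpG content. The median of all 32851 promoter windows held 7 CpG, against 23 in *Plxnd1*, 25 in *Plxna2*, 36 in *Unc5b* and 35 in *Efnb2*, whereas *Sema3g* held 8 and *Robo4* 2. The windows of *Sema3c* and *Ephb4* held 42 and 14. Motif letters were searched on both strands: CCGGAA for ETS factors (in 14.9% of all windows), TGGGAA for RBPJ (25.6%), TAAACA for FOX factors (13.4%) and GGAATG for TEAD (14.7%), of which ETS, RBPJ and TEAD can overlap in the letters GGAA. The letters for TEAD were found in *Plxnd1* and *Efnb2*, those for RBPJ in *Sema3g* and those for ETS in *Unc5b*, 1 match each, and no match of any of the 4 in *Plxna2*, *Robo4*, *Sema3c* and *Ephb4*.

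After filtering, 2900 to 5742 of 3067 to 6436 barcodes per library remained (over 500 genes and under 10% mitochondrial UMIs), with 31753395 to 42903731 UMIs per library and 0 to 13 barcodes shared by any pair of libraries. Clusters named by markers held 14145 ECs, which were clustered again without the guidance genes, so that the zones compared below did not depend on them. The ECs gave 2570 arterial-like, 7619 capillary-like and 729 venous-like cells, 383 ECs with 2 or more UMIs of *Apln* (*Apln*-positive, kept out of the zones) and a cluster without a zone name. A capillary-like cluster led by *Apln*, a peptide gene of sprouting tip cells, held 31 and 24 cells in the WT mice and 783 and 837 in the KO mice. The other capillary-like ECs, 6275 cells, came from clusters led by *Gm26917* and by *Ttr*, with mean standardized scores of 0.126 and 0.0545 for the capillary markers. Their medians were 3058.5 and 3446 UMIs, against 14807 in the venous-like cluster. The UMIs of all cells of a group were added up in each mouse, and levels are given as counts per 1000000 UMIs of that sum (CPM). The 8 capillary markers summed to 7506 to 8003 CPM in capillary-like, 4478 to 6263 in arterial-like and 2228 to 2833 CPM in venous-like ECs. *Angpt2* itself was at 10.7 and 9.91 CPM in WT ECs and at 64.9 and 41.1 in KO ECs, and at 96.4 and 83.0 against 21.2 and 10.9 in mural cells with under 3 endothelial markers, but UMIs from the 3′ end do not read exon 4 and so check no genotype. A gene was called where the adjusted p of edgeR's quasi-likelihood test (Benjamini-Hochberg over all genes tested) was under 0.05, log2 fold changes are given ± SE, and intervals cover counting error only.

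**Figure D1:**
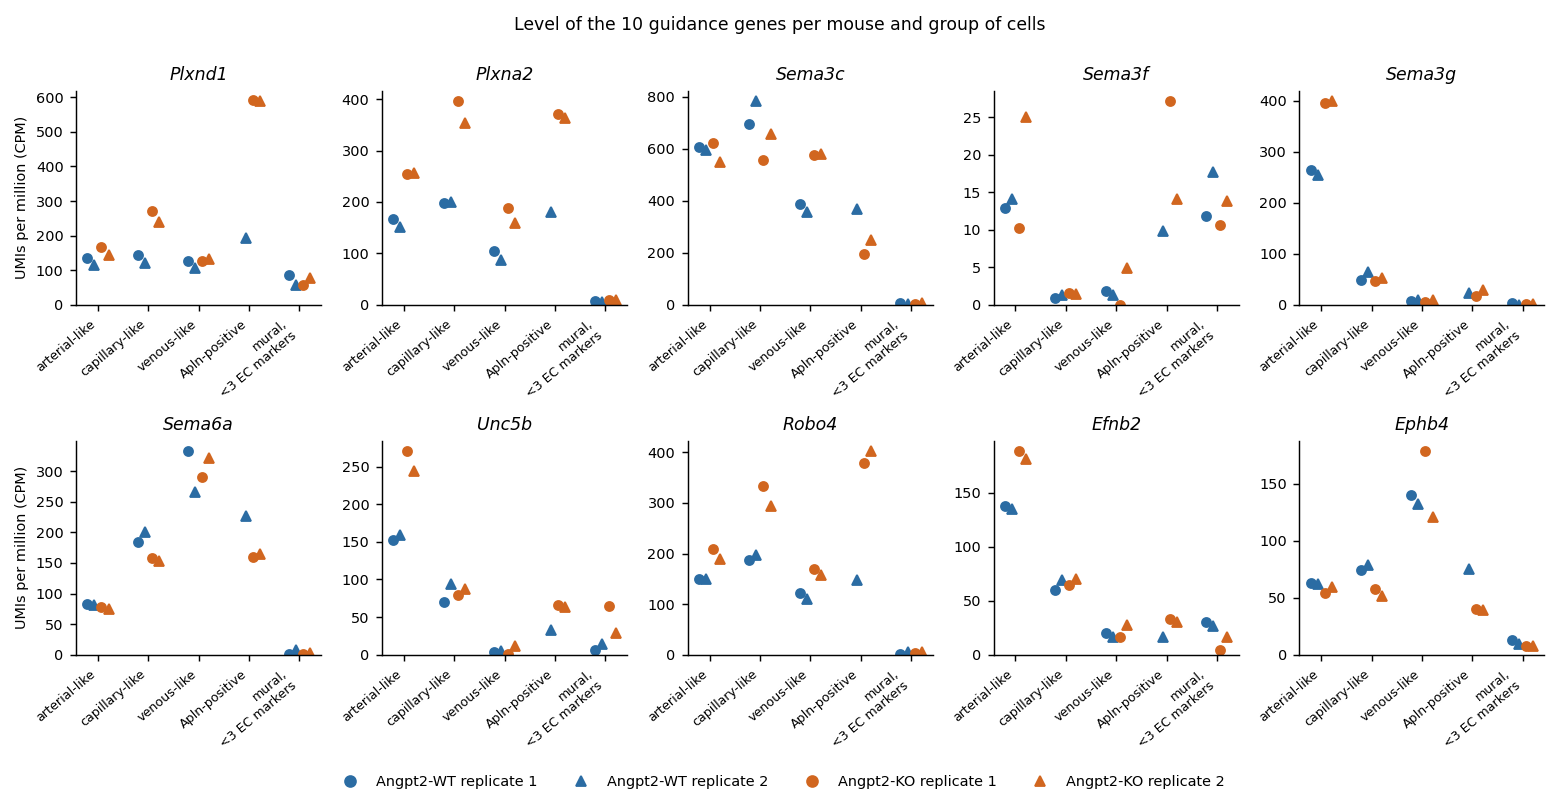
Level of each gene (y axis, CPM on a linear scale of its own per gene) in 4 groups of ECs and in mural cells with under 3 endothelial markers (x axis), 1 point per mouse, circles for replicate 1 and triangles for replicate 2, blue for WT and orange for KO. The 4 arterial-like sums of *Sema3g* lie between 255 and 399.6 CPM and its venous-like sums under 10 CPM, while *Plxnd1* reaches 593 and 589.9 CPM in the *Apln*-positive ECs of the KO mice. *Apln*-positive ECs of WT1 (9 cells) are not drawn.

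Along the vessel tree, 3 of the 5 ligands were higher on the arterial and 1 on the venous side, and *Sema3c* was on neither. *Sema3g*, *Sema3f* and *Efnb2* were higher in arterial-like than in capillary-like ECs in 4 of 4 mice, *Sema6a* was lower there and higher in venous-like ECs in 4 of 4 mice, and the receptors *Unc5b* and *Ephb4* lay at opposite ends. Between arterial-like and capillary-like ECs, compared within mice, 8 of the 10 genes were called (4 higher, 4 lower), where 32.6% of all 11958 genes tested were called. Between venous-like and capillary-like ECs 9 of 10 were called (2 higher, 7 lower) against 32.7% of 12154.

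*Sema3g* was at 265 and 255 CPM (WT1, WT2) and at 395 and 399.6 (KO1, KO2) in arterial-like ECs, at 48.2, 64.7, 45.5 and 52.9 in capillary-like ECs, and at 7.10, 9.49, 4.72 and 9.21 in venous-like ECs. Its 3 ranges did not overlap, and the venous-like level was near the 3.74 to 5.58 CPM of microglia-like cells, which carry free RNA of other cells. The fold change was 2.59 ± 0.13 on the log2 scale between arterial-like and capillary-like ECs (adjusted p = 1.87e-09) and -2.82 ± 0.14 between venous-like and capillary-like ECs (1.74e-09). *Efnb2*, the arterial ephrin, was at 138 and 135 CPM (WT) and 189 and 181 CPM (KO) in arterial-like ECs, at 59.5 to 70.5 in capillary-like and at 16.5 to 27.6 in venous-like ECs, again without overlap. It differed by 1.24 ± 0.084 and by -1.82 ± 0.13 in those comparisons. The venous-like values of *Efnb2* overlapped the 12.2 to 22.9 CPM of microglia-like cells.

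*Sema3f* was sparse, with 10.2 to 25.1 CPM in arterial-like and 0.913 to 1.57 CPM in capillary-like ECs, from 23 to 92 and 6 to 15 UMIs per mouse. The ranges did not overlap, and the fold change was 3.54 ± 0.23 (adjusted p = 2.41e-08). In venous-like ECs *Sema3f* was at 1.85, 1.32, 0 and 4.91 CPM (WT1, WT2, KO1, KO2), with no call. *Sema3c*, in contrast, was at 355.5 CPM or more in all sums of the 3 zones, with 558 to 784 CPM in capillary-like, 548 to 622 in arterial-like and 355.5 to 578 in venous-like ECs. The 3 ranges overlapped, and *Sema3c* was called lower in venous-like than in capillary-like ECs (-0.63 ± 0.15, adjusted p = 0.0061) but not between arterial-like and capillary-like ECs (-0.20 ± 0.083, 0.0727). The venous-like fall was large in WT1 and WT2 only, with 385 and 355.5 against 694 and 784 CPM. In KO2 it was 578 against 655 CPM, and KO1 ran the other way, with 576 against 558 CPM.

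*Sema6a*, the membrane-bound semaphorin, was at 333 and 266 (WT) and 290.3 and 322 CPM (KO) in venous-like ECs. It was at 192 ± 10.8 (mean ± SD, WT) and 155 ± 3.23 (KO, n = 2 each) in capillary-like and at 75.2 to 83.6 in arterial-like ECs. The 3 ranges did not overlap, and the fold changes were 0.71 ± 0.11 for venous-like and -1.16 ± 0.072 for arterial-like against capillary-like ECs (adjusted p = 9.99e-05 and 1.17e-08).

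Of the 5 receptors, only *Unc5b* was called higher in arterial-like than in capillary-like ECs. It was at 152 and 159 CPM (WT) and 271 and 244 CPM (KO) in arterial-like ECs, at 70.6 to 94.0 in capillary-like ECs and at 4.02, 4.48, 1.18 and 11.1 in venous-like ECs. All 3 ranges were apart, and the venous-like one overlapped the 1.87 to 12.1 CPM of microglia-like cells. The fold changes were 1.25 ± 0.12 and -4.12 ± 0.21 (adjusted p = 1.11e-06 and 1.58e-09). *Ephb4* ran the other way: it was at 140.2 and 133 (WT) and 179 and 121 CPM (KO) in venous-like ECs and at 51.9 to 79.0 in capillary-like ECs. The venous-like values lay above every capillary-like one (1.02 ± 0.13, adjusted p = 2.24e-05), while its arterial-like values of 54.1 to 63.5 overlapped the capillary-like ones with no call (-0.17 ± 0.088). Exons of *Ephb4* overlap those of *Zan* on the opposite strand, and the strand used in counting is not given in the sources used here.

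*Plxnd1*, *Plxna2* and *Robo4* were highest among the 3 zones in capillary-like ECs in every mouse. *Plxna2* was at 198 and 199.8 (WT) and 397 and 353 CPM (KO) in capillary-like ECs, at 166, 152, 255 and 257 in arterial-like and at 105, 86.7, 189 and 159 in venous-like ECs. Within each mouse the order of the 3 zones was the same, and the fold changes within mice were -0.47 ± 0.072 for arterial-like and -1.17 ± 0.099 for venous-like against capillary-like ECs. *Robo4* (-0.53 ± 0.075 and -0.91 ± 0.10) and *Plxnd1* (-0.42 ± 0.11 and -0.65 ± 0.15) fell in the same order. For *Plxnd1* the arterial-like gap was small in WT1 and WT2, with 135 and 116 against 143 and 122 CPM in capillary-like ECs. In KO1 and KO2 it was wider, with 167 and 144 against 271 and 240.3 CPM. Without KO2, *Plxnd1* lost its call between arterial-like and capillary-like ECs (-0.30, adjusted p = 0.0732).

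**Figure D2:**
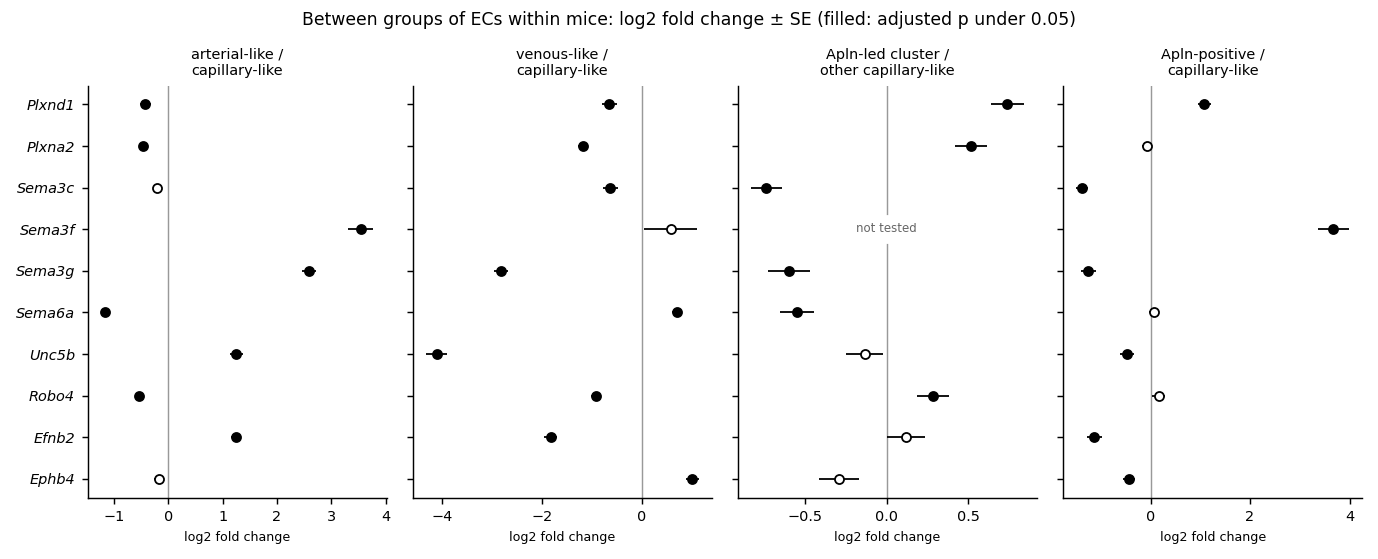
Log2 fold change (x axis, a scale of its own per panel) ± SE of each gene (y axis) between groups of ECs within mice, with filled points for genes called at an adjusted p under 0.05. *Sema3f* and *Sema3g* lie farthest right for arterial-like ECs, *Unc5b* farthest left for venous-like ECs, and *Plxnd1* lies right of 0 both for the *Apln*-led cluster and for *Apln*-positive ECs.

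Within capillary-like ECs the *Apln*-led cluster stood apart in receptors and ligands alike. Against the other capillary-like ECs of the same mice, the receptors *Plxnd1* (0.74 ± 0.099), *Plxna2* (0.51 ± 0.097) and *Robo4* (0.28 ± 0.098) were higher and the ligands *Sema3c* (-0.73 ± 0.092), *Sema3g* (-0.60 ± 0.13) and *Sema6a* (-0.55 ± 0.10) lower, each in 4 of 4 mice. These 6 of the 9 genes tested were called, where 23.5% of 11570 genes were. *Plxnd1* was at 295 and 233 CPM in the cluster (WT1, WT2) and at 304 and 315 (KO1, KO2), against 136, 119, 201 and 182 in the other capillary-like ECs. Every value in the cluster was above every value outside it, although the WT sums came from 24 and 19 cells once *Apln*-positive cells were left out. *Plxnd1*, *Plxna2* and *Robo4* are also on the marker list that the study drew from these libraries for its angiogenic cluster, and on that account the cluster is not independent evidence for them, although the 3 genes took no part in forming it here. *Robo4* lost its call without WT2 (0.26, adjusted p = 0.0581) or KO2 (0.24, 0.312).

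*Apln*-positive ECs were almost all from the KO mice, with 233 (KO1) and 126 cells (KO2) against 9 (WT1) and 15 (WT2). The share of ECs with 2 or more UMIs of *Apln* was 0.279% (95% Wilson interval 0.147 to 0.53%) in WT1 and 0.32% (0.194 to 0.527%) in WT2, against 11.2% (9.9 to 12.6%) in KO1 and 3.04% (2.56 to 3.61%) in KO2. Both KO mice lay above both WT mice, and the difference of means of 6.81 percentage points had an exact two-sided permutation p of 0.33, the smallest that 2 mice against 2 allow. Thinned to 2000 UMIs per cell the difference was 3.56 points. In microglia-like cells, which do not make *Apln*, the share was 0% in WT1 and WT2 (upper bounds of the same interval 1.81% and 2.32%), 0.749% in KO1 and 0.366% in KO2, with median depths of 3500 to 6283 UMIs against 3885 to 7505 in ECs.

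In these cells *Plxnd1* and *Sema3f* were higher than in the capillary-like ECs of the same mice, and 5 other genes were lower. Over WT2, KO1 and KO2, the mice with 10 or more *Apln*-positive ECs, 7 of 10 genes were called, where 20.3% of 11686 genes were. *Plxnd1* was at 193 CPM in WT2, 593 in KO1 and 589.9 in KO2, against 122, 271 and 240.3 in capillary-like ECs. It was higher in 3 of 3 mice (1.08 ± 0.13, adjusted p = 0.000115), and both KO values were above that of WT2. *Sema3f* was at 9.82 (3 UMIs), 27.2 and 14.1 CPM against 1.33, 1.57 and 1.39 (3.67 ± 0.31, adjusted p = 1.13e-05). The ranges of *Sema3f* did not overlap, and its level in fenestrated endothelial-like cells was higher still, at 211 and 199 (WT) and 195 and 183 CPM (KO).

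The genes lower in *Apln*-positive ECs were mostly ligands. *Sema3c* was at 367, 194 and 247 CPM (WT2, KO1, KO2) against 784, 558 and 655 (-1.38 ± 0.11), lower in 3 of 3 mice. *Sema3g* (-1.26 ± 0.15), *Efnb2* (-1.13 ± 0.15), *Unc5b* (-0.47 ± 0.15, adjusted p = 0.0418) and *Ephb4* (-0.43 ± 0.12, 0.0279) were also lower in 3 of 3 mice. *Unc5b* lost its call without KO1 (-0.79, adjusted p = 0.0935) or KO2 (-0.58, 0.277), and so did *Ephb4* (-0.29, 0.582, and -0.38, 0.376). *Plxna2* and *Robo4* were not called (-0.07 ± 0.10 and 0.16 ± 0.14). The 15 *Apln*-positive ECs of WT2 carried more of the 9 venous markers (2354 CPM in sum) than those of KO1 and KO2 (321 and 444), and the part of this difference in the values was not tested.

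Compared with the rest of the *Apln*-led cluster, *Apln*-positive ECs had more *Sema3f* (3.62 ± 0.32), *Plxnd1* (0.81 ± 0.14) and *Sema6a* (0.33 ± 0.099) and less *Efnb2* (-1.14 ± 0.15), *Sema3c* (-0.99 ± 0.12) and *Sema3g* (-0.94 ± 0.17). These 6 of 10 genes were called, where 15% of 10914 genes were. The count depended on single mice, as did the share of all genes called. Without KO1 only *Efnb2* was called (-1.53, adjusted p = 0.0105), where 1.56% of 8420 genes were. Without KO2 *Sema3f* (3.80), *Efnb2* (-1.22) and *Sema3c* (-0.87) were, where 2.78% of 10239 genes were. Without WT2 all 10 members were called, where 24.2% of 11051 genes were.

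The comparison of genotypes asked which of these genes changed where *Angpt2* is lost. Taken over all ECs, the receptors *Plxnd1*, *Plxna2* and *Robo4* rose and *Ephb4* fell in the *Angpt2*-KO mice, while no ligand was called. These 4 of 10 genes were called, where 5.78% of 13504 genes were. The members were chosen with earlier results of these data known, and *Plxnd1*, *Plxna2* and *Robo4* are on the study's marker list. Counts of members called between genotypes, here and below, are therefore not independent of these data.

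*Plxnd1* was at 129.9 and 109.5 CPM in WT1 and WT2 and at 302 and 223 CPM in KO1 and KO2. Both KO values lay above both WT values (1.12 ± 0.17, adjusted p = 0.00886). *Plxna2* was at 157 and 132 CPM in WT ECs and at 338 and 298 in KO ECs. Its groups were apart as well (1.12 ± 0.14, adjusted p = 0.00513). *Robo4* was at 164 and 152 against 304 and 262 CPM, again without overlap (0.83 ± 0.13, adjusted p = 0.0093). *Ephb4* was at 84.2 and 89.2 CPM in WT and at 61.1 and 62.1 in KO ECs, with both KO values below both WT values (-0.51 ± 0.097, adjusted p = 0.0223). *Ephb4* lost its call whichever mouse was left out (-0.49 to -0.52, adjusted p = 0.0579 to 0.13), and *Plxnd1* and *Robo4* lost theirs without WT2 (0.98, adjusted p = 0.0649, and 0.75, 0.0543).

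*Unc5b* (62.8 and 54.3 against 78.2 and 84.9 CPM) and *Sema3f* (4.03 and 3.67 against 7.82 and 5.79 CPM) were higher in both KO mice, with 0.46 ± 0.12 (adjusted p = 0.0697) and 0.81 ± 0.21 (0.0709), but were not called. *Sema3c*, *Sema3g* and *Efnb2* overlapped between genotypes (-0.02 ± 0.15, -0.03 ± 0.18 and 0.17 ± 0.14). A sum over all ECs mixes zones whose shares differed: arterial-like cells numbered 798 and 991 in WT and 228 and 553 in KO. Venous-like cells numbered 160 and 368 of 3224 and 4691 ECs in WT and 40 and 161 of 2083 and 4147 in KO. More cells of a kind cannot be told apart in such a sum from more RNA per cell. The 9 venous markers summed to 1182 and 1574 CPM in WT ECs and 607 and 810.3 CPM in KO ECs, and their part in the value of *Ephb4* was not tested. The summed level of 40 stress response genes was also lower in KO ECs (14700 and 14830 CPM) than in WT ECs (19410 and 19450), and its part in these results was not tested. Without the *Apln*-led cluster, *Plxna2* (0.84 ± 0.12, adjusted p = 0.0154) and *Robo4* (0.56 ± 0.11, 0.04) were still called and *Plxnd1* (0.48 ± 0.11, 0.0933) and *Ephb4* (-0.29 ± 0.098, 0.248) were not, where 1.46% of 13194 genes were.

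**Figure D3:**
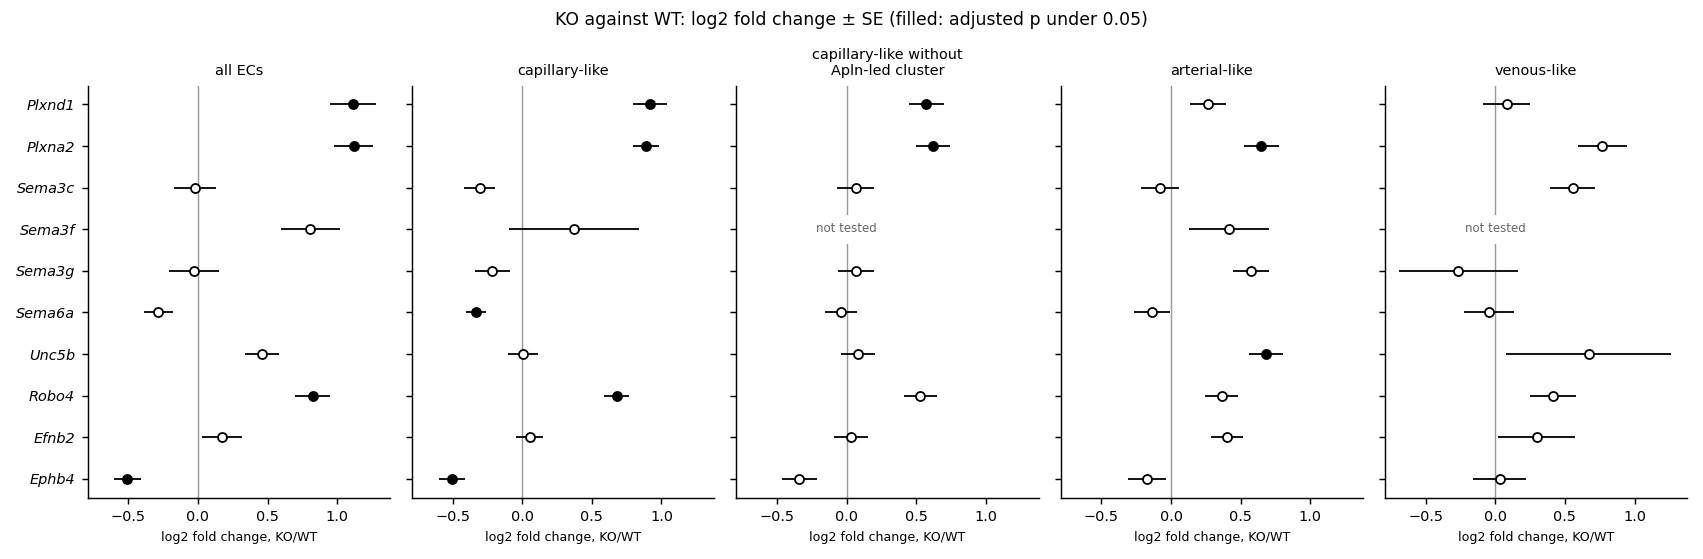
Log2 fold change of KO over WT (x axis, shared by the panels) ± SE for each gene (y axis) in all ECs and in groups of ECs, with filled points for genes called at an adjusted p under 0.05. *Plxna2* lies right of 0 in all 5 panels, whereas *Plxnd1* is at 0.92 in capillary-like ECs and at 0.08 in venous-like ECs.

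In capillary-like ECs the same 3 receptors rose, and *Sema6a* fell beside *Ephb4*. *Plxnd1* was at 143 and 122 (WT) and at 271 and 240.3 CPM (KO), with 0.92 ± 0.12 (adjusted p = 0.00235). *Plxna2*, whose 4 values stand above, rose by 0.89 ± 0.095 (0.000908), and *Robo4* rose from 188 and 196 to 334 and 294 CPM (0.68 ± 0.090, 0.00248). In all 3 the KO values lay above the WT values. *Ephb4* was at 74.5 and 79.0 (WT) against 58.2 and 51.9 CPM (KO), with -0.51 ± 0.091 (0.0105), and *Sema6a* at 192 ± 10.8 against 155 ± 3.23 CPM (mean ± SD, n = 2), with -0.33 ± 0.071 (0.0212). Both were lower in both KO mice. These 5 of 10 genes were called, where 8.61% of 11670 genes were. The 9 venous markers were also lower in these sums, at 456.5 and 509.8 CPM in WT and 294.2 and 355.9 CPM in KO, and their part in the values of *Ephb4* and *Sema6a* was not tested. Of the capillary-like ECs, 573 of 1242 in KO1 and 728 of 2741 in KO2 were of the *Apln*-led cluster, against 24 of 1524 in WT1 and 19 of 2112 in WT2.

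Without the *Apln*-led cluster, *Plxna2* and *Plxnd1* stayed higher in the capillary-like ECs of KO mice. *Plxna2* was at 194 and 196 (WT) and 322 and 281 CPM (KO), with 0.62 ± 0.12 (adjusted p = 0.0245), and *Plxnd1* at 136 and 119 against 201 and 182 CPM, with 0.57 ± 0.13 (0.0488). Neither overlapped between genotypes. *Robo4* also lay higher in both KO mice but was not called (0.53 ± 0.12, adjusted p = 0.0533), *Ephb4* lay lower (-0.34 ± 0.12, 0.348), and *Sema6a* was at 186 and 201 against 204 and 175 CPM (-0.04 ± 0.11). Here 1.13% of 11367 genes were called. *Sema6a* lost its call in capillary-like ECs whichever mouse was left out (-0.32 to -0.35, adjusted p = 0.0836 to 0.171), and *Ephb4* without WT1 (-0.47, 0.0701) or WT2 (-0.54, 0.0569). Within the *Apln*-led cluster itself, with 24 and 19 WT cells, no member was called between genotypes by edgeR's test, where 0.376% of 10096 genes were. At an unadjusted p under 0.05 were 3 of the 9 members tested, and 866 of the 10096 genes.

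In arterial-like ECs, *Unc5b* and *Plxna2* rose. *Unc5b* was at 152 and 159 CPM in WT and at 271 and 244 CPM in KO (0.68 ± 0.12, adjusted p = 0.0125), and *Plxna2* was at 166 and 152 against 255 and 257 CPM (0.65 ± 0.13, 0.0221). For both genes the KO values lay above the WT values. They were 2 of 10 genes called, where 0.718% of 11138 genes were. Neither was called with all variable genes in the clustering (adjusted p = 0.0546 for both) or without a filter on low counts (0.0691 and 0.0993). The 40 stress response genes were lower in KO here as well (21580 and 20750 CPM in WT, 18390 and 17590 in KO), and their part was not tested. In capillary-like ECs they ran the other way (10270 and 10860 CPM in WT, 11500 and 11470 in KO). The 8 capillary markers were higher in the arterial-like sums of KO (4899 and 4478 CPM in WT, 6263 and 5000 in KO), and their part in the value of *Plxna2* was not tested. The arterial ligands *Sema3g* (265 and 255 against 395 and 399.6 CPM) and *Efnb2* (138 and 135 against 189 and 181 CPM) were also higher in both KO mice, with 0.57 ± 0.13 (adjusted p = 0.0601) and 0.40 ± 0.12 (0.175), but were not called. *Unc5b* lost its call without KO1 (0.63, adjusted p = 0.107), and *Plxna2* without KO1 (0.67, 0.0602), KO2 (0.65, 0.0734) or WT2 (0.56, 0.075).

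In venous-like ECs, with 40 cells in KO1, none of the 9 genes tested was called by edgeR's test, where 0.0386% of 10350 genes were. At an unadjusted p under 0.05 were 3 of the 9, and 1013 of the 10350 genes. DESeq2 called 2 of the 6 members it tested, where it called 3.03% of 2477 genes. The 2 were *Plxna2*, at 105 and 86.7 (WT) against 189 and 159 CPM (KO), and *Sema3c*, at 385 and 355.5 against 576 and 578 CPM. Both were higher in both KO mice (0.77 ± 0.17, adjusted p = 0.144, and 0.55 ± 0.16, 0.26, by edgeR's test). Without WT1, which leaves 1 WT mouse, their changes were 0.88 and 0.59. *Plxnd1* overlapped at 125 and 106 against 125 and 132 CPM. The 8 pericyte markers summed to 417 and 279 CPM in the venous-like ECs of WT1 and WT2 and to 76.7 and 786 CPM in those of KO1 and KO2, and their part in these values was not tested.

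The change of *Plxnd1* with genotype was smaller in arteries and veins than in capillaries, by a test of the difference itself. Relative to capillary-like ECs, its log2 fold change was lower by 0.65 in arterial-like and by 0.83 in venous-like ECs, with adjusted p = 0.000686 and 8.79e-05. *Sema3g* (0.80 ± 0.13) and *Unc5b* (0.68 ± 0.14) changed more upward in arterial-like ECs, and *Sema3c* (0.87 ± 0.12) and *Ephb4* (0.52 ± 0.16) in venous-like ECs. These were 3 of 10 genes in each contrast, where 2.9% and 7.89% of 12435 genes were called. Without the *Apln*-led cluster 0 of 10 were called in either, with *Plxnd1* at -0.29 ± 0.14 and -0.47 ± 0.15, where 3 and 5 of 11953 genes were. At an unadjusted p under 0.05 were 4 and 2 members, and 522 and 996 of the 11953 genes. *Unc5b* lost its call without KO1 (0.54, adjusted p = 0.075) or WT2 (0.56, 0.149), and *Ephb4* without KO1 (0.31, 0.389) or WT2 (0.54, 0.189).

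ECs with 1 or more UMIs of *Apln*, a group chosen after seeing the data, with 38 and 63 WT cells and 391 and 307 KO cells, were compared between genotypes in place of the *Apln*-positive ECs. In them *Plxnd1*, *Unc5b*, *Plxna2* and *Robo4* were higher in KO and *Ephb4* lower. *Plxnd1* was at 178 and 144 (WT) and 489 and 420 CPM (KO), with 1.51 ± 0.19 (adjusted p = 0.000353), and *Unc5b* at 24.0 and 19.9 against 58.3 and 57.7 CPM, with 1.44 ± 0.22 (0.00154). The groups were apart for both. *Plxna2* (1.20 ± 0.23), *Robo4* (0.96 ± 0.24) and *Ephb4* (-0.95 ± 0.19) made 5 of 10 genes called, where 9.91% of 10064 were, and *Robo4* (0.53, adjusted p = 0.135) and *Ephb4* (-0.64, 0.163) lost their calls without WT2. The WT cells carried more venous marker UMIs (1763 and 2519 CPM against 469.5 and 709), and 1 UMI of *Apln* was also found in 0.481 to 4.12% of microglia-like cells, whose part in these values was not tested.

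In the EC cluster without a zone name, led by *F5*, *Ndnf* and *Car4* and scoring highest for venous markers, *Plxna2* (139.6 and 110.7 against 251 and 230.0 CPM) and *Plxnd1* (117 and 99.7 against 157 and 155 CPM) were higher in both KO mice. They were called, with 0.90 ± 0.14 (adjusted p = 0.0011) and 0.49 ± 0.13 (0.0437), where 2.54% of 11463 genes were.

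In mural cells no member was called between genotypes when cells with endothelial RNA were set aside, but not every member could then be tested. In all 1305 pericyte-like and smooth muscle-like cells, *Plxna2*, *Robo4*, *Plxnd1* and *Unc5b* were called higher in KO. The mix of both types moved with genotype: there were 75 and 149 pericyte-like and 264 and 190 smooth muscle-like cells in WT1 and WT2, against 173 and 208 and 53 and 193 in KO1 and KO2, and 7 smooth muscle markers summed to 18970 and 18100 CPM in WT and 5271 and 12990 in KO. In pericyte-like cells alone the same 4 genes were called, where 5.25% of 9922 genes were. In smooth muscle-like cells alone none was called by edgeR's test, where 0.00975% of 10255 were. At an unadjusted p under 0.05 were 5 members there, and 568 of the 10255 genes. In the 753 mural cells with UMIs of under 3 of 7 endothelial markers, 4 members could be tested. None of them was called by edgeR's test, where 0.0342% of 8783 genes were. At an unadjusted p under 0.05 were 2 of the 4, and 600 of the 8783 genes. The change of *Plxnd1* turned from 1.26 ± 0.23 to -0.17 ± 0.27.

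Of the mural cells, 38.9% and 34.8% in WT1 and WT2 and 54.4% and 44.6% in KO1 and KO2 held 3 or more of the endothelial markers *Tie1*, *Flt1*, *Cldn5*, *Kdr*, *Tek*, *Pecam1* and *Cdh5*. The 7 markers summed to 5125 and 5781 CPM (WT) and 7353 and 6508 CPM (KO) in all mural cells, against 145 to 208 CPM with those cells set aside and 11640 to 12660 CPM in ECs. None of the 7 was at 0 in all 4 mice in either sum. The cells were set aside by these same markers, so the fall of their sum was given in advance. Among pericyte-like cells the share was 34.7% and 34.2% in WT and 60.7% and 56.7% in KO. Of the pericyte-like cells with 1 or more UMIs of *Apln*, 44 of 47 in KO1 and 26 of 27 in KO2 were among them. The pericyte-like cells with 3 or more of the markers were also deeper, with medians of 17448 and 12463 UMIs in WT1 and WT2 and 24880 and 9369 in KO1 and KO2. The other pericyte-like cells had medians of 3009 and 2776.5 (WT) and 4794 and 2074 UMIs (KO), and the part of depth in the shares was not tested. No doublet caller was run, and whether the cells with 3 or more markers are 2 cells in 1 droplet or ECs still attached to a pericyte was not tested.

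*Robo4* was at 61.4 and 69.4 (WT) and 228 and 153 CPM (KO) in all mural cells, with 1.44 ± 0.20 (adjusted p = 0.0123), and at 0.742, 5.60, 2.65 and 5.93 CPM (WT1, WT2, KO1, KO2) without the endothelial RNA, under its 23.4 to 44.0 CPM in microglia-like cells. *Plxna2* went from 76.7 and 68.7 against 272 and 162 CPM (1.47 ± 0.23, adjusted p = 0.017) to 6.67, 4.67, 9.28 and 9.88 CPM. These last KO values of *Plxna2* still lay above the WT values, on 5 to 10 UMIs per mouse and without a test. In both genes the genotypes were apart over all mural cells, at levels far above those of the cells with under 3 endothelial markers. *Plxnd1* was at 115 and 80.4 (WT) against 295 and 210.2 CPM (KO) in all mural cells (adjusted p = 0.0264) and at 84.5, 56.0, 58.3 and 77.1 CPM in the reduced set, above the microglia-like level of 11.5 to 48.6 CPM and with overlapping genotypes. Over all mural cells 1.91% of 11405 genes were called, and the 4 members lost their calls without WT1, WT2 or KO1 (adjusted p = 0.206 to 0.554).

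**Figure D4:**
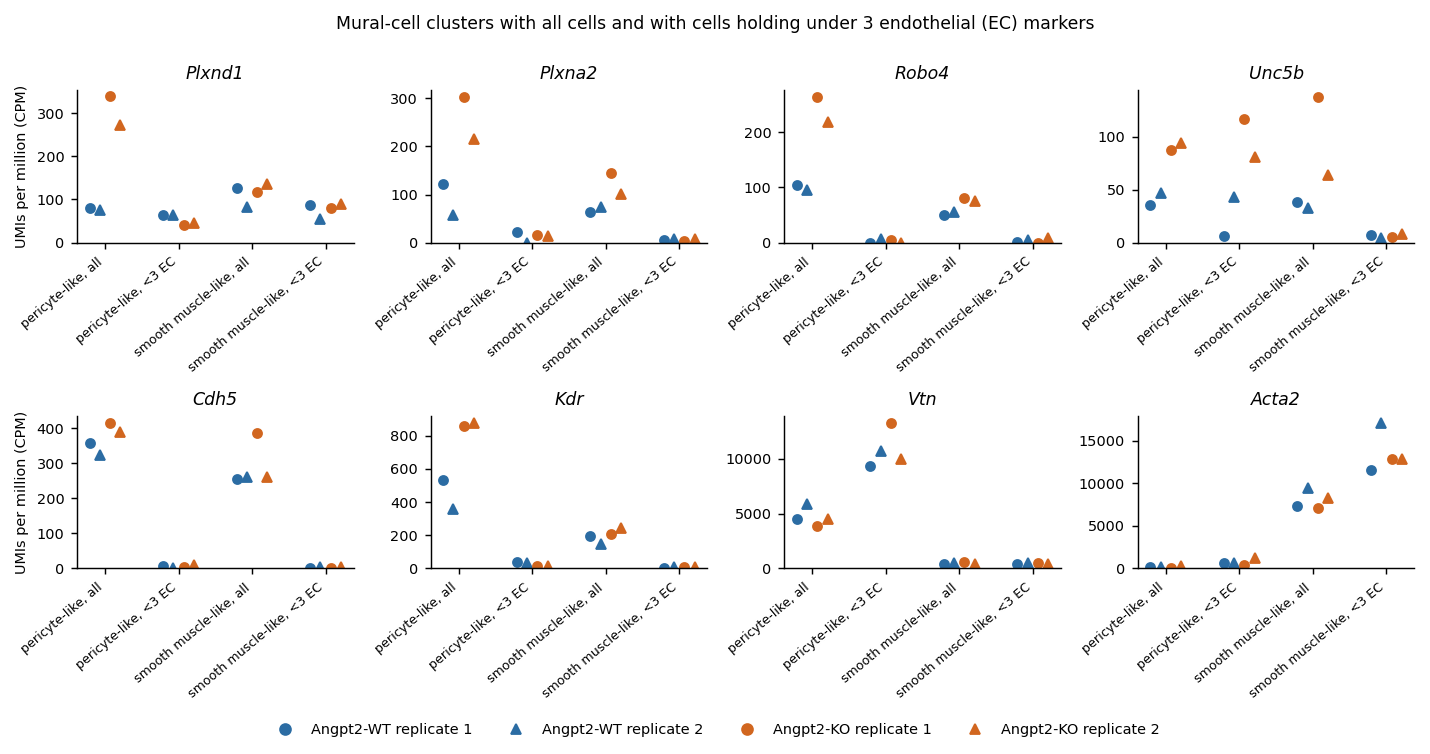
Levels (y axis, CPM on a linear scale of its own per gene) of 4 guidance receptors, 2 endothelial markers (*Cdh5*, *Kdr*) and 2 mural markers (*Vtn*, *Acta2*) in pericyte-like and smooth muscle-like cells, each with all cells and with cells holding under 3 endothelial markers (x axis), 1 point per mouse. *Robo4* and *Plxna2* fall when cells with 3 or more endothelial markers are set aside, while *Unc5b* stays at 117 and 81.4 CPM in the pericyte-like cells of the KO mice. *Cdh5* and *Kdr* are among the markers by which those cells were set aside, so their fall was given in advance.

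*Unc5b* was the exception among the 4. In pericyte-like cells with under 3 endothelial markers it was at 5.71 and 42.9 CPM in WT1 and WT2 (1 and 13 UMIs) and at 117 and 81.4 CPM in KO1 and KO2 (47 and 23 UMIs). Both KO values lay above both WT values, and with all pericyte-like cells the KO values were 87.9 and 93.8 CPM. In smooth muscle-like cells of the same kind it was at 6.82 and 3.90 against 5.69 and 8.23 CPM. Over both mural types together the change was 1.99 ± 0.44 (adjusted p = 0.239), not called, and its difference from the change in ECs was 1.51 ± 0.38 (adjusted p = 0.0161), one of 3 called with *Plxnd1* (-1.25) and *Efnb2* (-1.68), where 1.59% of 13921 genes were. Pericyte-like cells were 49 of 207 and 98 of 221 of these cells in WT1 and WT2 and 68 of 103 and 90 of 222 in KO1 and KO2, so in this sum more pericyte-like cells cannot be told apart from more *Unc5b* per cell. With all mural cells that difference was 0.65 ± 0.15 (0.0611). There edgeR's test called 0 of 10 genes, where 1.52% of 13873 genes were called. DESeq2 also called 0 of 10, where 0.897% of 10926 were. At an unadjusted p under 0.05 were 5 members and 1698 genes in all by edgeR's test. By DESeq2 they were 3 members and 630 genes.

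Across cell types, 9 of the 10 genes were lower and *Sema3f* higher in mural cells with under 3 endothelial markers than in ECs, in 4 of 4 mice, and all 10 were called, where 51.8% of 13921 genes were. *Sema3c* was at 0.933 to 8.16 against 529 to 642 CPM (-7.05 ± 0.26) and *Sema3f* at 10.6 to 17.7 against 3.67 to 7.82 CPM (1.43 ± 0.32). The ranges were apart for both genes. The *Sema3f* of these mural cells was in the smooth muscle-like cells (13.6 to 24.7 CPM), with 0 UMIs in the pericyte-like cells of each mouse, which allows up to 3 among sums of 175120 to 403130. Among the cells with under 3 endothelial markers, *Efnb2* was at 34.9 and 35.1 (WT) and 8.54 and 21.9 CPM (KO) in smooth muscle-like cells and at 0 to 6.60 CPM in pericyte-like cells. Taken over all mural cells, 6 of 10 genes were called against ECs, where 45.2% of 13873 genes were, and *Sema3g* differed by 0.19 ± 0.071 in place of -5.76 ± 0.31.

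The other genes of the 4 families were read from a list of 67 semaphorins, plexins, neuropilins, netrins and their receptors, Slits, Robos, ephrins and Ephs. Of the 40 tested in ECs, 9 were called higher and 3 lower in KO, where 3.7% and 2.07% of all genes were. The plexins and neuropilins had 3 of 7 higher and a median log2 fold change of 0.42, the semaphorins 2 of 10 higher (median -0.20), the netrin, Slit and Robo group 2 of 12 higher and 3 lower (-0.04) and the ephrins and Ephs 2 of 11 higher (-0.35), beside a median of -0.02 over all genes. By size, *Slit3* (3.26 ± 0.38), *Efnb3* (2.43 ± 0.53), *Sema5a* (1.65 ± 0.29), *Sema6d* (1.37 ± 0.21) and *Nrp1* (1.25 ± 0.16) led those that rose, and *Slit2* (-1.26 ± 0.24) those that fell. *Nrp1*, the co-receptor of class 3 semaphorins, was at 215 and 176 CPM in WT and at 519 and 425.5 CPM in KO ECs, without overlap. *Nrp1* is on the study's marker list for its angiogenic cluster, too. *Slit3* was at 0.685 and 0.74 against 9.34 and 4.61 CPM, a large fold on few UMIs (18, 25, 210 and 101).

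**Figure D5:**
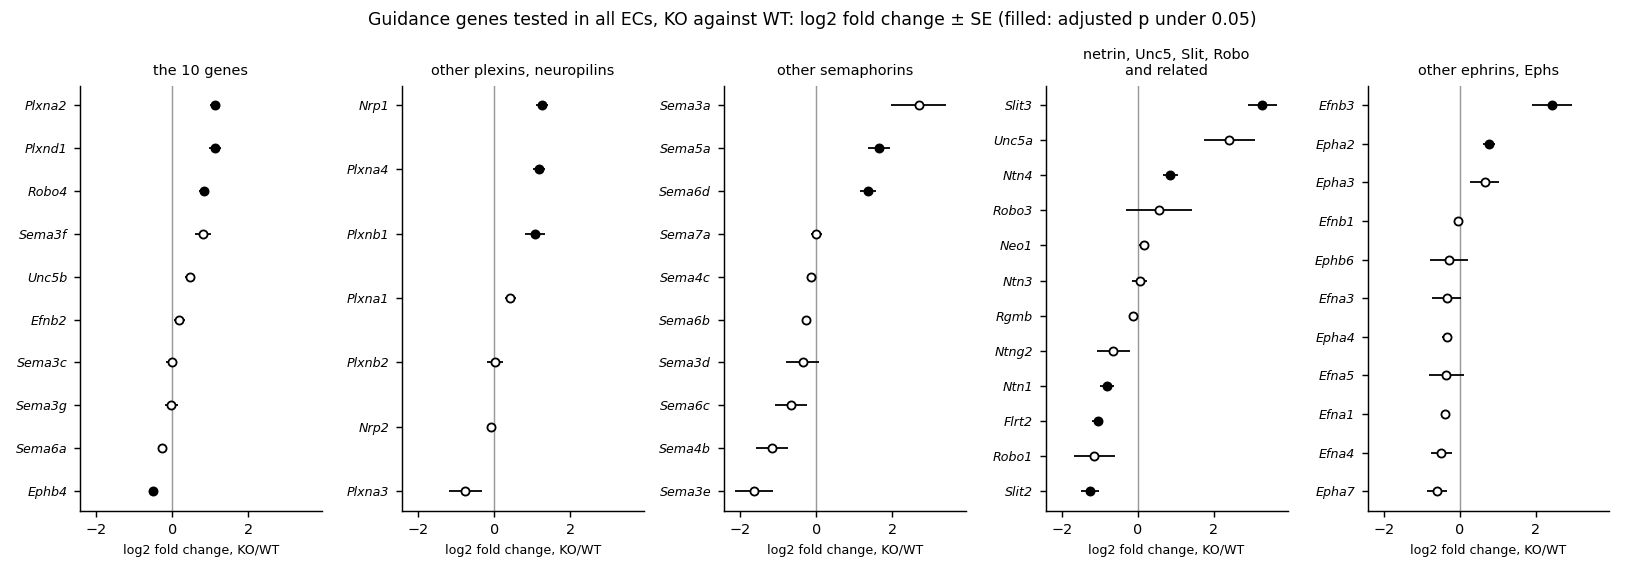
Log2 fold change of KO over WT in all ECs (x axis, shared) ± SE for the 10 genes and the other guidance genes tested, 1 panel per family, sorted by size, with filled points for genes called at an adjusted p under 0.05. *Nrp1*, *Plxna4* and *Plxnb1* lie right of 0 with *Plxna2*, *Plxnd1* and *Robo4*, and *Slit2*, *Flrt2* and *Ntn1* lie left of it.

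In capillary-like ECs the largest changes among these other genes were those of *Slit3* (2.74 ± 0.38), *Plxna4* (1.54 ± 0.15), *Sema5a* (1.49 ± 0.24), *Flrt2* (-1.31 ± 0.13), *Ntn4* (1.20 ± 0.16) and *Sema6d* (0.99 ± 0.10). *Plxna4*, a receptor of *Sema6a* and class 3 semaphorins, was at 18.0 and 16.2 CPM in WT and at 57.0 and 44.3 CPM in KO. *Flrt2*, a membrane ligand of Unc5 receptors, was at 76.2 and 82.8 against 28.3 and 36.6 CPM. Both were apart between genotypes. In arterial-like ECs *Nrp1* alone was called (0.65 ± 0.14), and in venous-like ECs none was. Over all mural cells *Nrp2*, *Plxna4*, *Nrp1* and *Sema6d* were called higher (1.16 to 1.52), where the endothelial RNA described above also moved with genotype, and none was called among the 18 tested in mural cells with under 3 endothelial markers.

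Between zones, other genes of the families also differed. *Efna5* (4.84 ± 0.37), *Ntn1* (2.62 ± 0.19) and *Epha3* (2.40 ± 0.33) were higher and *Flrt2* (-2.31 ± 0.14) and *Nrp2* (-1.49 ± 0.095) lower in arterial-like than in capillary-like ECs. *Nrp2*, known from veins and lymphatic vessels, was at 447.5 to 604 CPM in venous-like, 49.2 to 112 in capillary-like and 17.0 to 36.3 CPM in arterial-like ECs, with no overlap. In venous-like ECs *Efna4* (3.85 ± 0.43), *Sema3e* (3.58 ± 0.70), the ligand of *Plxnd1*, *Slit2* (3.33 ± 0.40), *Ntn1* (3.09 ± 0.24), *Plxnb2* (2.93 ± 0.16) and *Nrp2* (2.81 ± 0.14) were higher than in capillary-like ECs. In *Apln*-positive ECs *Unc5a* (3.999 ± 0.45), *Efnb3* (3.32 ± 0.43), *Sema3a* (2.69 ± 0.62), *Plxnb1* (1.94 ± 0.35), *Nrp2* (1.60 ± 0.24) and *Plxnb2* (1.23 ± 0.35) were higher. Most of these are sparse: *Efnb3* was at 0, 16.4 and 14.8 CPM in the *Apln*-positive ECs of WT2, KO1 and KO2.

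Over 19 sums (arterial-like, capillary-like, venous-like and *Apln*-positive ECs and mural cells of each mouse, less the *Apln*-positive ECs of WT1), the genes whose log2 level ran most like each member were looked up among 3068 candidates (3069 for *Sema3f*). *Plxna2* was most like *Robo4* (Pearson r = 0.965) and *Rnf19a* (0.949), and *Robo4* most like *Sptan1* (0.968) and *Rnf19a* (0.967). *Sema3g* and *Efnb2* were each other's nearest (0.946), followed by *Gcnt2* (0.908) and *Lmo7* (0.936). For the remaining members the nearest were *Map4k4* (0.939) for *Plxnd1*, *Tcf12* (0.975) for *Sema6a*, *Klhl5* (0.938) for *Ephb4*, *Prickle1* (0.941) for *Sema3c*, *Rapgef4* (0.904) for *Unc5b* and *Mgst3* (0.839) for *Sema3f*. The second in line were *Mrps5* (0.906), *Mtss1* (0.932), *Samhd1* (0.937), *Slc30a1* (0.94), *Atxn1* (0.887) and *Zcrb1* (0.837), in that order. These correlations describe 19 sums that share mice and libraries, and mural sums here hold the endothelial RNA described above.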

How the data were processed

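UMIs were measured with 10x 3′ v3.1 chemistry in brain microvascular fragments of 2 *Angpt2*-WT and 2 *Angpt2*-KO mice. The authors counted UMIs per gene and barcode on mm10 (GRCm38). The submitters' notes name Cell Ranger 6.1.2, and the deposited counts are whole numbers without normalization. No column of the authors' own comparisons was present.

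Cells with over 500 genes and under 10% mitochondrial UMIs were clustered in Seurat 5.3.0 (R 4.3.3) on 2000 variable genes and 50 components, at resolution 0.2 and, for ECs, 0.4, leaving guidance and stress genes out. A cluster was named from fixed markers where 3 or more were each in 25% of its cells, so names are rebuilt ones. Doublets were not called. Mural cells with UMIs of 3 or more endothelial markers were set aside as an alternative.

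For each mouse, UMIs were added up over every group of 10 or more cells and compared with the quasi-likelihood test of edgeR 4.0.16 (filterByExpr, TMM, Benjamini-Hochberg over all genes tested, threshold 0.05), with the mouse as a term between groups of cells and genotype by group terms for differences of changes. Genotypes were compared without a block, so any difference between the sexes is part of the spread within a genotype. The labels tie a replicate number to the sex and to nothing else, and calls with it as a block are given with the alternatives. The study speaks of independent experiments without saying which libraries belong to which. DESeq2 1.42.0, scaling, filter, thinning to 2000 UMIs per cell, cluster settings and leaving out each mouse were alternatives. The comparisons of the *Apln*-led cluster, of ECs with 1 or more UMIs of *Apln*, of the cluster without a zone name and of each mural type were chosen after seeing the data. The scripts were tested on simulated counts. Depth was 31753395 to 42903731 UMIs per library. In the sums, 1 UMI was worth 0.0296 to 0.0456 CPM in ECs and 0.132 to 1.18 CPM in venous-like ECs, so levels of a few CPM rest on few UMIs. P-values between genotypes, and those for differences of changes, rest on the spread between 2 mice of a genotype. Those between groups of cells rest on how the difference within a mouse varied over 3 or 4 mice.

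Members and gene lists were chosen with earlier results of these data known. Named are all 10 members in every comparison, up to 6 other called guidance genes with the largest log2 fold change per comparison, and for each member the 2 genes of at least 50 CPM with the highest Pearson correlation over the sums (log2 of CPM plus 1). *Angpt2* and *Apln* serve as checks, and *Zan*, *Plxnb1* and *Ntn1* were named after their values were seen. Coordinates and promoter sequences are from RefSeq GRCm38.p6, gene models from GENCODE on GRCm38. No column belonged to another series.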

Additional observations from a re-analysis of the deposited data

Results flagged for a closer look

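Several genes changed with genotype to a different extent in 2 groups of cells, by edgeR's test of the difference itself, and each is given here as the difference of log2 fold changes. Between arterial-like and capillary-like ECs these were *Sema3g* (0.80), *Unc5b* (0.68), *Plxnd1* (-0.65) and, among the other guidance genes, *Efna1* (0.72), *Epha4* (0.60), *Ntn4* (-0.64) and *Sema6d* (-0.65). Between venous-like and capillary-like ECs they were *Sema3c* (0.87), *Ephb4* (0.52), *Plxnd1* (-0.83), *Flrt2* (1.16), *Epha4* (0.45), *Sema7a* (0.39), *Nrp1* (-0.43), *Nrp2* (-0.72) and *Plxna4* (-1.48). Without the *Apln*-led cluster none of these was called in either contrast, where 3 and 5 of 11953 genes were. At an unadjusted p under 0.05 were 4 and 2 of the 10 members, and 522 and 996 of the 11953 genes. Between all mural cells and ECs, *Nrp2* (1.57), *Ntn1* (1.12), *Ntn4* (-1.82), *Plxnb1* (-1.40), *Sema5a* (-1.44) and *Slit3* (-3.91) differed. In these mural cells the endothelial markers summed to 5125 and 5781 CPM in WT and 7353 and 6508 CPM in KO mice, and their part in the 6 differences was not tested.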

How the results depend on the processing

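Among the results on single genes, 2031 values kept their direction and side of the threshold under an alternative, 248 lost and 70 gained a call, and 10 turned. The number of members called fell in ECs from 4 to 2 without the *Apln*-led cluster, in capillary-like ECs from 5 to 2 without it and to 3 with thinned cells, and in arterial-like ECs from 2 to 0 with all variable genes in the clustering or no filter on low counts and to 1 with thinned cells. The share of all genes called moved too. It went from 5.78% to 1.46% in ECs and from 8.61% to 1.13% and 5.31% in capillary-like ECs. In arterial-like ECs it went from 0.718% to 0.37%, 0.171% and 0.632%. The number of members rose in venous-like ECs from 0 to 2 by DESeq2 and 1 with no filter, while the share of all genes rose from 0.0386% to 3.03% and 1.17%. In mural cells the members fell from 4 to 0 with thinned cells, smooth muscle-like cells only, or cells with under 3 endothelial markers (where only 4 members were tested). There the share fell from 1.91% to 0.0792%, 0.00975% and 0.0342%. Mural cells against ECs went from 6 to 10 with thinned cells or under 3 endothelial markers, with the share at 45.2%, 40.8% and 51.8%. The difference of changes went from 3 to 0 for arterial-like and venous-like ECs without the *Apln*-led cluster (venous-like 1 with thinned cells), and for mural cells from 0 to 3 with no filter, 1 with pericyte-like cells only and 3 with under 3 endothelial markers. The share of all genes went from 2.9% to 0.0251% (arterial-like) and from 7.89% to 0.0418% and, thinned, 1.13% (venous-like). For mural cells it went from 1.52% to 3.16%, 1.03% and 1.59%. *Apln*-positive ECs against the *Apln*-led cluster went from 6 to 3 by DESeq2, and the share of all genes from 15% to 3.1%. Values that turned were, with under 3 endothelial markers, *Plxnd1* in mural cells (-0.17) and its difference from ECs (-1.25) and *Sema3g* in mural cells against ECs (-5.76, -0.82 thinned, -1.92 pericyte-like only). With pericyte-like cells only, *Sema3f* against ECs was at -0.036. With smooth muscle-like cells only, *Efnb2* against ECs was at 0.51 and the genotype changes of *Nrp2* and *Sema6d* at -0.073 and -0.0080. *Nrp1*, venous-like minus capillary-like, was at 0.088 with thinned cells. The cause was not tested, beyond the cells that each alternative leaves out.

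Leaving out 1 mouse gave 1 to 4 members called in ECs, 1 to 3 in arterial-like (1 without WT2, KO1 or KO2), 3 to 4 in capillary-like (3 without WT1 or WT2), 0 to 2 in venous-like ECs (2 without WT1) and 0 to 4 in mural cells, 8 to 9 and 9 to 9 for arterial-like and venous-like against capillary-like ECs, 5 to 8 for *Apln*-positive ECs, 6 to 8 for mural cells against ECs, 2 to 3, 2 to 4 and 0 to 6 (6 without KO2) for the differences of changes, 5 to 6 for the *Apln*-led cluster, 1 to 10 for *Apln*-positive ECs against it and 5 to 6 for ECs with 1 or more UMIs of *Apln*. For *Apln*-positive ECs against the *Apln*-led cluster, the share of all genes called ran from 1.56% to 24.2% over these fits. The difference in the share of *Apln*-positive ECs ranged from 2.74 to 10.9 points, and was 11.8 and 4.26 points at 1 or 5 UMIs. Where a genotype is left with 1 mouse, that mouse is taken to vary like the others.

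With the replicate number as a block, 5 members were called in ECs, 3 in arterial-like, 5 in capillary-like, 0 in venous-like ECs, 4 in mural cells and 7 in ECs with 1 or more UMIs of *Apln*. The shares of all genes called were 8.13%, 1.73%, 11.7%, 0.058%, 4.52% and 11.2%, in that order. *Sema3f* gained its call in ECs (0.79, adjusted p = 0.0348), *Sema3g* in arterial-like ECs (0.58, 0.0218) and both in ECs with UMIs of *Apln* (2.10 and 1.27). Over all genes, the block raised the calls from 80 to 193 in arterial-like ECs and from 218 to 515 in mural cells. Same-numbered mice deviated together by Pearson's r (0.0911 to 0.587 by group) but not by Spearman's rho (-0.264 to -0.0429). They share a sex, and whether they also share an experiment is not given in the labels. Over all genes, calls ranged from 185 (without WT2) to 1562 (no filter) around 780 in ECs, from 30 to 193 around 80 in arterial-like, from 129 to 1747 around 1005 in capillary-like, from 1 to 850 around 4 in venous-like ECs and from 0 to 709 around 218 in mural cells. By DESeq2 the median log2 fold change of all genes was 0.107 to 0.151 in 4 comparisons between groups of cells and 0.188 for the difference of changes in venous-like ECs, against -0.0307 to -0.0112 by edgeR. Genotypes could not be compared in *Apln*-positive ECs with 2 or 5 UMIs, as WT1 had under 10 such cells.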

Other observations

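Outside the zones compared, the fenestrated endothelial-like cells, which express *Plvap* and lack the barrier, carried the members in another pattern. *Plxnd1* was at 402 and 301 CPM in WT and 403 and 352 CPM in KO, *Plxna2* at 364 and 305 against 411 and 371 CPM, and *Robo4* at 340.0 and 355 against 396 and 339.7 CPM. The genotypes overlapped in *Plxnd1* and *Robo4* and were apart in *Plxna2*, with no test run. *Efnb2* was at 271 and 193 against 275 and 273 CPM, above its values in every arterial-like sum, while *Sema3c* (188 to 219 CPM) lay under its venous-like values. *Sema6a* was at 185 and 181 in WT and 242 and 235 CPM in KO, the direction opposite to that in capillary-like ECs. These cells also held 762 to 2035 CPM of pericyte markers, whose part was not tested.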
